A study of Homo sapiens with 6 samples.

Results

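The genes described here are those whose platform symbol is RAB or TBC1D with a number, DENND with a single digit, or a RAB number followed by FIP, each with or without a closing letter or number, measured in HCT116 cells that carried an empty vector or a construct labelled as overexpressing miR-196b. The symbols matched 22 probe sets of 21 genes, of 14884 named genes in all. They are 13 DENND genes, 5 RAB11FIP genes, TBC1D31, TBC1D32 and RAB6D. The RAB GTPases themselves are hardly covered. Of 63 protein-coding RAB genes that RefSeq lists under such a symbol, 1 had a named probe set, and of 43 TBC1D genes 2 did, so the other 62 and 41 are not analysed here. The members are therefore called DENND and RAB11FIP genes below, and nothing is said of the GTPases they act on.

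HCT116 is an established human colorectal carcinoma line; the titles and cell line field spell it HTC116, and the growth protocol and design text HCT116. Both groups were stably transduced, the control group with an empty vector and the other with a construct labelled as overexpressing miR-196b, and each group held 3 arrays of total RNA. Arrays within a group are biological replicates by the labels. Whether they stem from separate transductions is not given there, and p-values cover only the spread between these cultures. Values are log2 signals, 1 per probe set and array, and their precision is limited by the number of arrays. In bulk RNA, fewer cells of a type and less RNA per cell cannot be told apart.

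RAB proteins are small GTPases that mark membranes and recruit the machinery of vesicle transport. DENN domain proteins load RABs with GTP and so switch them on, TBC domain proteins speed GTP hydrolysis and switch them off, and effectors such as the RAB11FIP family bind the active form. In epithelial cells this cycle governs endocytosis, recycling of integrins and receptors to the surface, and polarised delivery. The microRNA of the labels is shown with its close relative because the array signal of the relative differed between the groups. Capitals mark the seed, bases 2 to 8 from the 5′ end, which both share, and all sequences are from RefSeq (GRCh38.p14).
hsa-miR-196b-5p: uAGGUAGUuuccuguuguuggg
hsa-miR-196a-5p: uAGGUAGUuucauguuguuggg
The first lies in MIR196B at chr7:27169528-27169549 on the minus strand, and the second in MIR196A2 at chr12:53991762-53991783 on the plus strand. Each is 22 bases long, and they differ by C12A, counted from the 5′ end of miR-196b-5p.

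The probe set of MIR196B was at 7.97 ± 0.102 in control and 8.05 ± 0.144 in the arrays labelled miR-196b (log2, SD, n = 3 each), and that of MIR196A2 at 3.06 ± 0.167 and 10.6 ± 0.149 (limma adjusted p = 4.53e-07 for MIR196A2). Precursors, not mature microRNAs, are what the array reads, and directions below are those of the arrays as labelled. Array medians lay between 4.34 and 4.37, and the correlation over all probe sets, a description only, was 0.989 to 0.992 for arrays of the same group and 0.988 to 0.990 for arrays of different groups. Of 10 colon epithelial marker genes, 8 were measured, with control means from 4.13 (VIL1) to 11.3 (KRT18), and the summed log2 level of their probe sets was 66.4 to 66.9 in control and 65.0 to 65.9 in the labelled arrays. The 3 measured fibroblast markers had control means of 2.00 to 5.01 and summed to 9.24 to 9.61 in control and 9.17 to 9.67 in the labelled arrays. The 3 measured blood markers had control means of 2.96 to 7.71 (CD68) and summed to 14.5 to 14.8 and 14.4 to 15.2. The 3 endothelial markers had control means of 3.07 to 4.13 and summed to 10.6 to 11.4 and 10.85 to 10.89. Of these lists only the epithelial sums did not overlap between the groups, and the part of this in the results below was not tested. In the epithelial list KRT20 (-0.33), CDX2 (-0.26) and a KRT18 probe set (-0.22) had a limma unadjusted p below 0.05, and 0 passed adjusted. VIL1 (0.06) and KRT19 (0.002) were on the higher side. In the blood list CSF1R (0.31) also had a limma unadjusted p below 0.05 and did not pass adjusted, while CD68 (-0.20) and CD14 (-0.01) were lower. In the fibroblast and endothelial lists 0 had such an unadjusted p.

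No DENND or RAB11FIP gene passed the test, and the nearest to it was DENND5B, which was 1.39-fold higher in the labelled arrays. DENND3, DENND4C and TBC1D32 were also higher in every labelled array than in every control array, by smaller steps. So was DENND4A, with a gap between the groups of only 0.0035. The 5 RAB11FIP probe sets had log2 changes between -0.10 and 0.06. In the limma fit over all 16098 named probe sets, 0 of 22 members passed at an adjusted p below 0.05, where 0.0559% of all probe sets did. At an unadjusted p below 0.05, 4 members were higher and 0 lower, beside 5.73% of all probe sets higher and 4.14% lower. The groups were separated, with every labelled array above every control array, at 5 members (10% of all probe sets), and the opposite held at 0 (7.18%). The 95% interval lay within 1.5-fold of no change for 20 of the 22 probe sets, all but those of DENND5B and DENND2A.

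**Figure D1:**
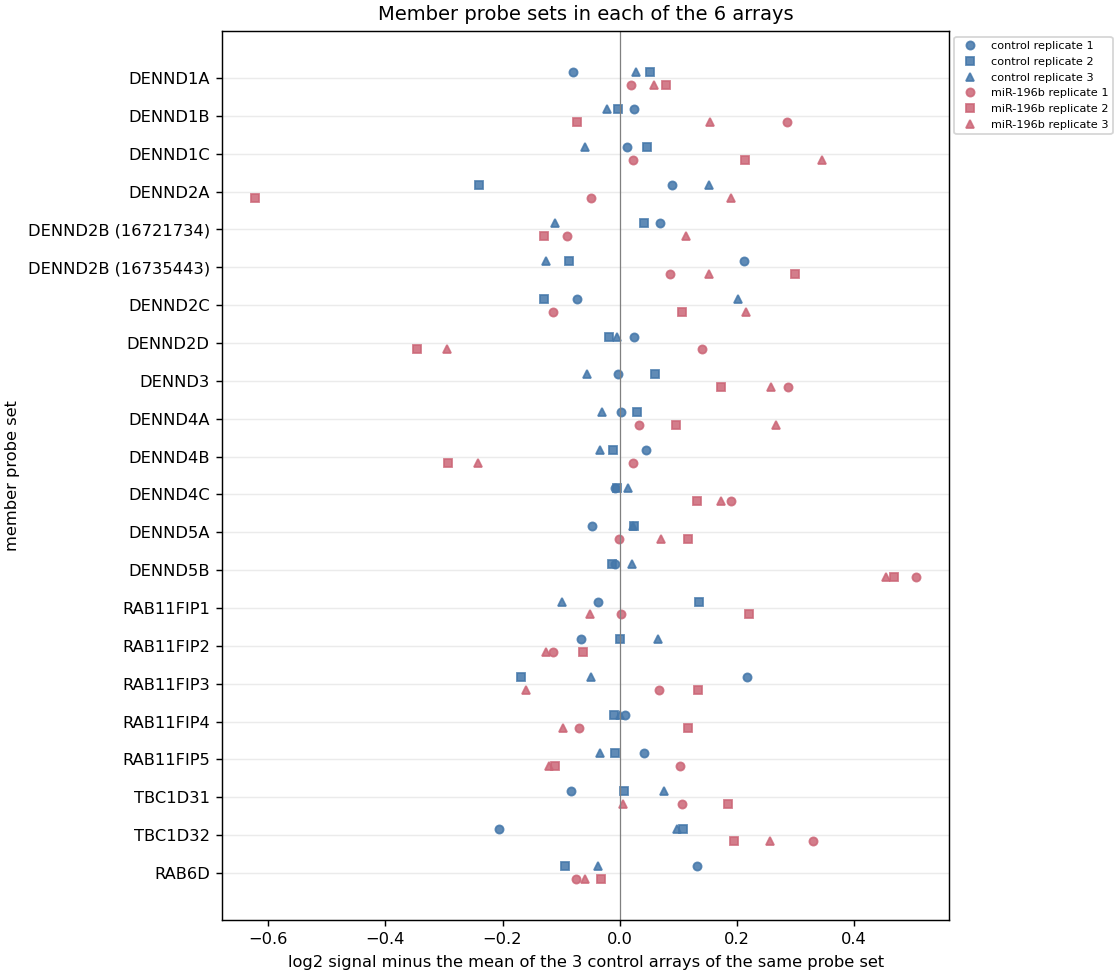
Each row is a member probe set and each point an array. Points are drawn as log2 signal minus the mean of the 3 control arrays of that probe set. Blue marks control, red the arrays labelled miR-196b, and the marker shape the replicate number, which was not taken to pair cultures. DENND5B is the row whose red points stand farthest from the blue ones on the higher side, and the red points of DENND2D and DENND4B are split between replicate 1 and the other two.

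DENND5B and DENND5A make up a subfamily whose products bind RAB6 and act as exchange factors for RAB39. The control arrays of DENND5B read 8.25, 8.24 and 8.28, and the labelled arrays 8.76, 8.73 and 8.71, in log2 signal. All 3 labelled arrays were high, and the gap between the groups was far wider than the spread within either (SD 0.0188 in control and 0.0262 in the labelled arrays). The log2 change was 0.48 with an SE of 0.07 and a 95% interval of 0.32 to 0.63, which did not pass over all named probe sets (limma adjusted p = 0.144, unadjusted p = 0.000159, rank 17 of 16098 by p). With 3 arrays a side, an exact two-sided permutation test cannot go below p = 0.1, which DENND5B reached. DENND5B passed when the dimmest 40% of probe sets were left out (adjusted p = 0.0245, where 0.228% of probe sets passed) and with a trended, robust variance prior (0.00171, where 0.565% passed). Over all alternatives its change stayed between 0.46 and 0.49 and its adjusted p between 0.00171 and 0.489.

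The relative DENND5A showed no such gap: its control arrays were at 8.0, 8.07 and 8.07 and its labelled arrays at 8.04, 8.16 and 8.12, and the groups overlapped. DENND5A had a log2 change of 0.06 (95% interval -0.11 to 0.23, limma adjusted p = 0.800). The change of DENND5B exceeded that of DENND5A by 0.41, taken array by array, and the groups were separated in this difference. Its SE of 0.05 came from the plain spread of the difference within each group. The SEs of single genes come from limma, which draws on all probe sets, so they are not comparable with it. That pair was 1 of 4 compared, chosen after the values were seen, and the exact permutation p was 0.1, or 0.2 adjusted over the 4 pairs. A ratio within an array can bear only on unequal change, which did not pass this test, and does not show that DENND5A did not change.

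The stretches just upstream of both start sites are shown for these relatives. Their difference in change had an exact permutation p of 0.1, or 0.2 adjusted over the 4 pairs. Each covers the 250 bases before the RefSeq start, and capitals mark matches to GGGCGG, the GC box read by SP1-type factors, on either strand; where 2 matches overlap they run together.
DENND5B: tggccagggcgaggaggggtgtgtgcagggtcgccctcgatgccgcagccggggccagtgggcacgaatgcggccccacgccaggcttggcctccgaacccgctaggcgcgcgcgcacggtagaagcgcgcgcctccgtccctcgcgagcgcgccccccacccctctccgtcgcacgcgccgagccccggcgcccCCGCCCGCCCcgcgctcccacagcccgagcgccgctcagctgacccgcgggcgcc
DENND5A: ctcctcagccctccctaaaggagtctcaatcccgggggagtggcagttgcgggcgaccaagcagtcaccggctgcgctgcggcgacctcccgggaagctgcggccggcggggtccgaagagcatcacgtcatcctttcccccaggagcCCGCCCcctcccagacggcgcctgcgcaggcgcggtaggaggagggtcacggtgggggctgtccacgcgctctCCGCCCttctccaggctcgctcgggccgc
The first lies at chr12:31591137-31591386 on the minus strand and is 79.6% G and C, and the second at chr11:9265327-9265576 on the minus strand and is 72% G and C. Both hold 2 matches to GGGCGG, and neither holds CACGTG (the E-box core), TAATTA (a homeodomain core), CCAAT or TGACGTCA (the cAMP response element) on either strand. Among the 17 members found in the promoter table, 13 held GGGCGG (76.5%), against 42.6% of 35116 upstream stretches of the same length. The members' stretches were also richer in G and C (median 70% against 58%). The 35116 stretches were not matched to the members in gene type or in G and C, and no test of this difference was made. The E-box core, the homeodomain core and the cAMP response element were each found in 1 of the 17 (in 6.34%, 4.35% and 1.65% of all stretches), and CCAAT in 2 (32.0% of all). A match is only a match of letters in this window.

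Genes beside DENND5B on its chromosome were examined for a shift of the region. Of the 5 nearest named protein-coding genes on each side, TMTC1, a transmembrane O-mannosyltransferase, went from 4.79 ± 0.230 to 5.27 ± 0.199 (log2, SD, n = 3 each), a change of 0.48 (limma adjusted p = 0.407). BICD1, a dynein adaptor that binds RAB6, had changes of 0.27 and 0.09 at its probe sets 16749759 and 16763011 (adjusted p = 0.383 and 0.769). The groups were separated at TMTC1 and at the first of the BICD1 probe sets. At the other 8 genes, which include the nearest named gene on either side of DENND5B, the groups overlapped and changes ran from -0.03 (RESF1) to 0.17 (ETFBKMT). The antisense gene DENND5B-AS1 had a change of 0.08 with a 95% interval of -0.22 to 0.38. How probes were assigned to strands is not given in the sources used here.

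**Figure D2:**
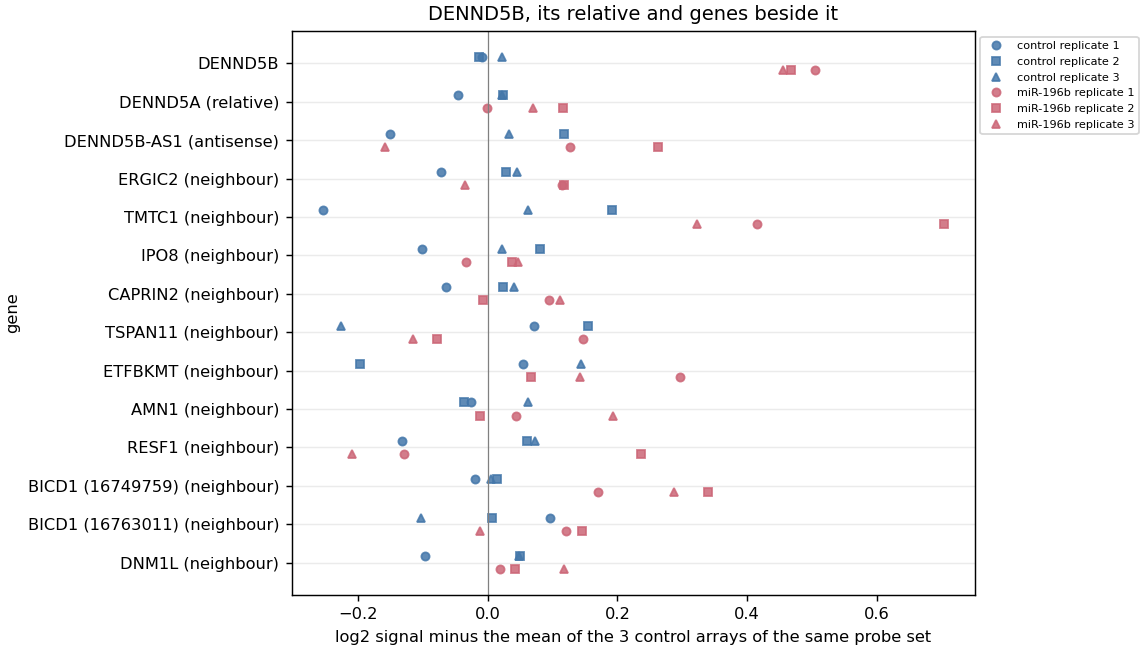
Points are arrays, drawn as log2 signal minus the control mean of the same probe set, for DENND5B, its relative DENND5A, its antisense gene and the 5 nearest named protein-coding genes on each side in chromosome order; blue is control and red the arrays labelled miR-196b. Groups are apart at DENND5B, TMTC1 and BICD1 probe set 16749759, and overlap in the other rows.

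DENND3, an exchange factor for RAB12 with a role in autophagy, was at 5.52, 5.58 and 5.47 in the control arrays and 5.81, 5.69 and 5.78 in the labelled arrays. All 3 labelled arrays were higher than all 3 control arrays. The log2 change was 0.24 with an SE of 0.07 (limma adjusted p = 0.407, unadjusted p = 0.0140). Its unadjusted p was above 0.05 when control replicate 3 was left out (0.0532).

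The DENND4 genes encode exchange factors for RAB10, which carries cargo such as the glucose transporter of fat cells to the surface. DENND4C read 7.83, 7.83 and 7.85 in control and 8.03, 7.97 and 8.01 in the labelled arrays, with no overlap. Its change was 0.17 with an SE of 0.07 (limma adjusted p = 0.489, unadjusted p = 0.0411), and with any of the 6 arrays left out its unadjusted p was 0.0555 to 0.0984. DENND4A read 7.57, 7.60 and 7.54 in control and 7.60, 7.66 and 7.83 in the labelled arrays, so that the groups were apart by only 0.0035, and 1 labelled array stood above the others. Its change was 0.13 (95% interval -0.07 to 0.33). DENND4B read 6.87, 6.81 and 6.79 in control and 6.85, 6.53 and 6.58 in the labelled arrays. Replicate 1 of the labelled arrays lay among the controls and the other 2 below them, and the change was -0.17 (95% interval -0.40 to 0.06). Array by array, DENND4C changed by 0.34 more than DENND4B, with an SE of 0.09 and separated groups (exact permutation p = 0.1, or 0.2 adjusted over the 4 pairs). For DENND4A against DENND4B the difference was 0.30 with an SE of 0.15 (exact permutation p = 0.2, adjusted 0.267). For DENND4C against DENND4A it was 0.03 with an SE of 0.08 (exact permutation p = 0.8, adjusted 0.8). The SEs of these differences come from their plain spread within groups and are not comparable with the limma SEs of single genes.

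The DENND1 genes, or connecdenns, encode exchange factors for RAB35 at clathrin-coated vesicles. All 3 probe sets were higher, by 0.05 to 0.19, with overlapping groups. DENND1C read 4.84, 4.87 and 4.77 in control and 4.85, 5.04 and 5.17 in the labelled arrays, with the lowest labelled array inside the control range (change 0.19, limma adjusted p = 0.562). DENND1B read 6.02, 5.99 and 5.97 in control and 6.28, 5.92 and 6.15 in the labelled arrays. Its labelled arrays lay on both sides of the controls, and the change was 0.12 (adjusted p = 0.715), or 0.04 without replicate 1 of the labelled arrays and 0.22 without replicate 2. DENND1A had a change of 0.05 with a 95% interval of -0.12 to 0.22.

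The DENND2 genes encode exchange factors for RAB9, which works in transport from late endosomes, and DENND2B acts on RAB13 at the edge of migrating cells. Of their 5 probe sets 2 were higher and 3 lower, and the groups overlapped at all 5. DENND2B was read by probe set 16735443, with a change of 0.18 (95% interval -0.09 to 0.44), and by probe set 16721734, with -0.04 (-0.26 to 0.19), so its probe sets differed in sign and neither interval left out 0. DENND2D read 6.88, 6.84 and 6.85 in control and 7.0, 6.51 and 6.56 in the labelled arrays. As with DENND4B, replicate 1 of the labelled arrays was the high array, here above all controls, and the other 2 were low. Without that array, DENND2D had a change of -0.32 (unadjusted p = 0.00634, limma adjusted p = 0.468) and DENND4B of -0.27 (unadjusted p = 0.0158, adjusted p = 0.485). They were the 2 members then lower at an unadjusted p below 0.05, where 4.28% of all probe sets were. Leaving out an array also brought 3 member probe sets below 0.05 on the higher side. These were DENND1C without replicate 1 of the labelled arrays (0.28, unadjusted p = 0.0189, where 5.13% of all were higher), DENND2B probe set 16735443 without control replicate 1 (0.28, 0.0240, 4.47%) and DENND1B without replicate 2 of the labelled arrays (0.22, 0.0408, 5.42%). DENND2A had the widest interval of the members, -0.66 to 0.34, with labelled arrays at 3.95, 3.37 and 4.19 and control arrays at 4.08, 3.75 and 4.15. DENND2C had a change of 0.07 (95% interval -0.22 to 0.36).

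**Figure D3:**
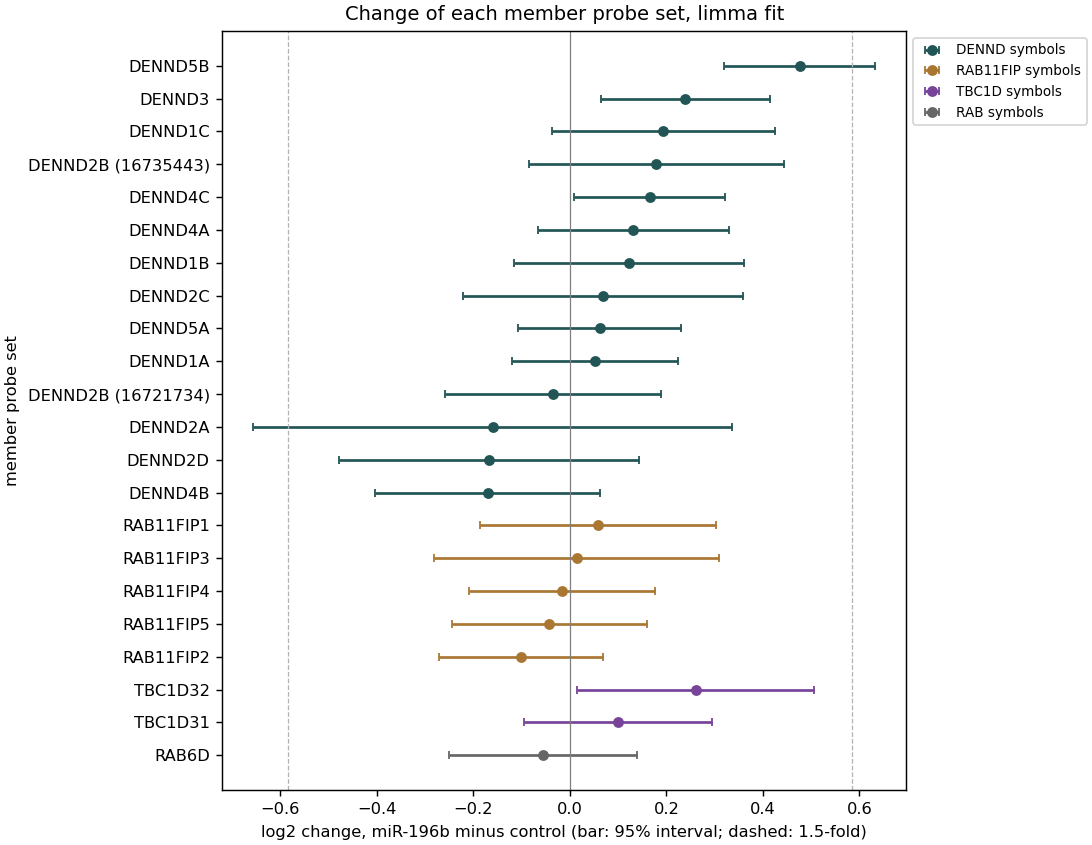
Points are the log2 change of each member probe set, arrays labelled miR-196b minus control, from the limma fit, with bars for the 95% interval, colours for the kind of symbol and dashed lines at 1.5-fold. The interval of DENND5B lies farthest from 0 (0.32 to 0.63), those of DENND3, DENND4C and TBC1D32 also lie above 0, and all 5 RAB11FIP intervals span 0.

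The RAB11FIP genes encode effectors of RAB11, the GTPase of the recycling endosome. RAB11FIP1, RAB11FIP2 and RAB11FIP5 belong to class I, which carries receptors and integrins back to the surface, and RAB11FIP3 and RAB11FIP4 to class II, which works in cell division. Class I gave changes of 0.06, -0.10 and -0.04, and class II of 0.01 and -0.02. RAB11FIP2, which binds myosin Vb, had the smallest p of the family: its control arrays read 8.51, 8.58 and 8.64 and its labelled arrays 8.46, 8.52 and 8.45, with 1 labelled array inside the control range (unadjusted p = 0.204, limma adjusted p = 0.669). RAB11FIP4 had control arrays between 6.26 and 6.28 and labelled arrays between 6.17 and 6.39, so that the labelled arrays lay on both sides of the controls. RAB11FIP1 labelled arrays read 6.41, 6.63 and 6.35 beside 6.37, 6.54 and 6.31 in control. Over the 5 probe sets, 2 were higher and 3 lower, with a median of -0.02, beside a median of 0.01 over all named probe sets.

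TBC1D32, a protein of cilia that takes part in Hedgehog signalling, read 6.47, 6.79 and 6.78 in control and 7.01, 6.88 and 6.94 in the labelled arrays. The groups were apart, and control replicate 1 lay well below the other 2 controls. The change was 0.26 with an SE of 0.10 (limma adjusted p = 0.487, unadjusted p = 0.0404). Without control replicate 1 it was 0.16 (unadjusted p = 0.107, adjusted p = 0.659). Its unadjusted p was also above 0.05 with any 1 of the labelled arrays left out (0.0527 to 0.110). TBC1D31, a centrosomal protein, had a change of 0.10 (95% interval -0.10 to 0.29) with overlapping groups. RAB6D read 1.75 to 1.98 in control and 1.77 to 1.81 in the labelled arrays, among the dimmest 1.46% of named probe sets by mean signal. It is close in sequence to other RAB6 genes, so which transcript its probes read is uncertain.

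Genes of the RAB cycle outside these symbols were taken from 4 lists of exchange factors, GTPase-activating proteins, effectors and escort factors, 120 genes in all, of which 96 were measured at 98 probe sets. Of these, 0 passed the test over all genes (0.0559% of all named probe sets did), and 8 were higher and 4 lower at an unadjusted p below 0.05 (5.73% and 4.14% of all). The groups were separated at 18 on the higher side and 8 on the lower (10% and 7.18% of all). DENND11, whose symbol has 2 digits and so belongs to these lists, had a change of 0.16 with separated groups (limma adjusted p = 0.542). The median change was 0.06 and 63.3% of probe sets were higher. The 22 members had a median of 0.06 and 63.6% higher, and all named probe sets had a median of 0.01 and 52.0% higher. The exchange factors gave 26 of 39 probe sets higher (median 0.08), the GTPase-activating proteins 8 of 11 (0.09), the effectors 25 of 44 (0.04) and the escort and prenylation factors 3 of 4 (0.03).

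Among the exchange factors, RIN2, which acts on RAB5, read 4.34, 4.12 and 4.31 in control and 4.58, 4.53 and 4.78 in the labelled arrays, a change of 0.37 (limma adjusted p = 0.360). CCZ1, part of the exchange factor of RAB7, changed by 0.31 (adjusted p = 0.407) with separated groups; it has a near-identical copy whose signal its probes could share, so its value is uncertain. On the lower side were RIN1, another RAB5 exchange factor (-0.19, adjusted p = 0.453), and MON1A, the partner of CCZ1 (-0.28, 95% interval -0.63 to 0.07, adjusted p = 0.572). The groups overlapped at MON1A, and its change was -0.19 without control replicate 1, -0.43 without control replicate 3 and -0.17 without replicate 3 of the labelled arrays. The TRAPP complex, which activates RAB1 on the way to the Golgi, had 8 of 13 subunits higher with a median of 0.06. EHBP1, an adaptor that binds RAB8 and RAB10, had changes of 0.25 and 0.19 at its 2 probe sets (adjusted p = 0.435 and 0.780). TBCK, a TBC domain protein, had 0.23 (adjusted p = 0.452).

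**Figure D4:**
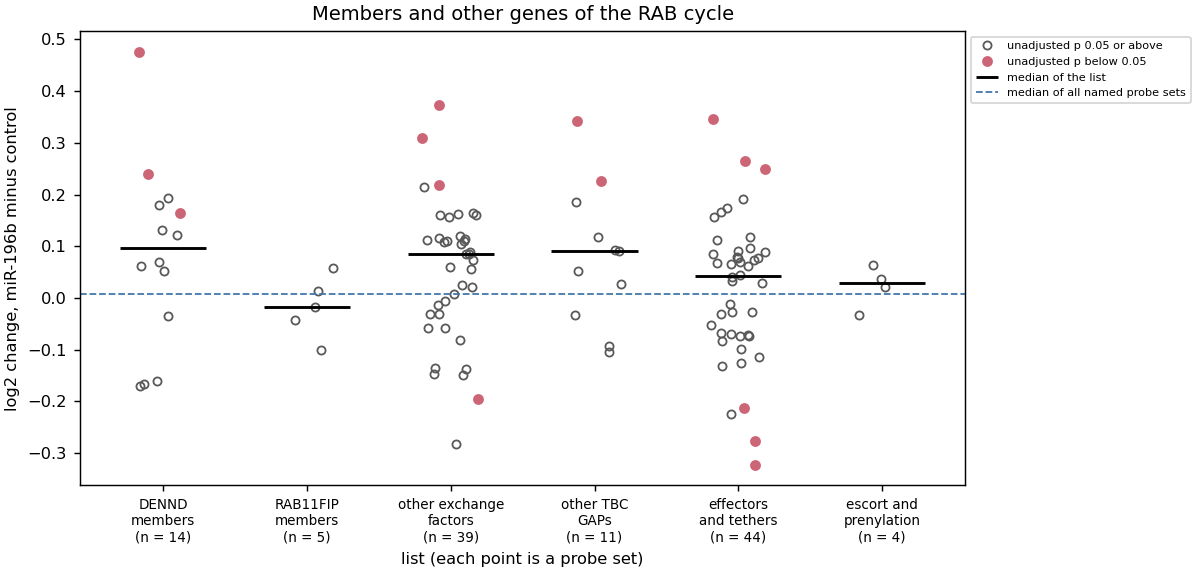
Each point is the log2 change of a probe set, arrays labelled miR-196b minus control, by list; filled points had an unadjusted p below 0.05, black bars are list medians and the dashed line the median of all named probe sets. DENND5B is the highest point of all lists, and the RAB11FIP points lie between -0.10 and 0.06. Filled points stand on both sides among the effectors and among the other exchange factors.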

How the data were processed

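The deposited values are log2 signals, 1 per probe set and array, made by the authors with RMA and Partek 6.6 per the submitters' processing notes, which give no order or options. RMA in its standard form equalizes the arrays, which can remove an overall difference between the groups. Array medians still ranged from 4.34 to 4.37. The file does not name its log base, which was read as 2, the base RMA returns. Of 53617 probe sets, 16098 had 1 gene symbol in the platform annotation; the other 37519 are unnamed here. No genome build of the array is given in the sources used here.

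The members and lists were chosen with earlier results of these data known. All named probe sets were fitted with lmFit and eBayes in limma 3.58.1 (R 4.3.3), arrays labelled miR-196b minus control, with Benjamini-Hochberg adjustment over all of them and a threshold of 0.05. The named genes are the members (the 10 with the smallest p on each side, DENND5B and any past the threshold; the rest are given for completeness) and up to 6 genes on each side from the other lists. TMTC1 and other neighbours of DENND5B, its antisense gene, TRAPP subunits and the 4 pairs of relatives were chosen after the data were seen. Older symbols were matched through RefSeq. Simulated data with the real spread held 16098 probe sets, with 50 planted changes of each size. This fit recovered 4% of the 1.25-fold changes and 40% of the 1.5-fold ones. It recovered 80% of the 2-fold and 98% of the 4-fold ones, and 4 calls were false. In the real data 9 named probe sets passed, fewer than were planted. The adjusted p depends on how many probe sets change, so these shares can overstate recovery in the real data. Alternatives were a filter on dim probe sets, a trended robust prior, centring, quantile normalization, array weights, a replicate block, all probe sets, and each array left out in turn. No slide or scan date was used, so no batch was tested.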

Additional observations from a re-analysis of the deposited data

How the results depend on the processing

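The count of members past an adjusted p of 0.05 was 0 as reported and 1 (DENND5B) both without the dimmest 40% of probe sets, which leaves out DENND2A and RAB6D, and with the trended, robust prior; it was 0 in the other settings. Members higher at an unadjusted p below 0.05 numbered 4 as reported, 4 with either setting just named, 3 with median centring, repeated quantile normalization or array weights, 2 with the replicate block, 2 with all probe sets tested and 2 to 3 with an array left out; the lowest count came without control replicate 3 and without replicate 3 of the labelled arrays. Members lower numbered 0, and 0 to 2 with an array left out, the 2 being DENND2D and DENND4B without replicate 1 of the labelled arrays. The median change of the members was 0.06 and lay between 0.04 and 0.08 in all settings, and 0 other RAB cycle genes passed in any. Same-numbered arrays deviated together at correlations of 0.0085 to 0.0369, so the replicate numbers were not taken to pair cultures, and 2 of 3 numbers correlated best with their own; the block is given for completeness. Small changes turned sign with an array left out: RAB6D (-0.10 to 0.011), RAB11FIP3 (-0.070 to 0.12), RAB11FIP4 (-0.084 to 0.024), RAB11FIP1 (-0.024 to 0.13), DENND2A (-0.34 to 0.071), DENND2B probe set 16721734 (-0.11 to 0.012) and DENND2C (-0.0038 to 0.17). None of the 22 member probe sets or the 12 other RAB cycle genes followed turned sign under the other alternatives; neighbours of DENND5B and genes described outside these were not run. With an array left out, the change of 18 of the 22 moved by over 1.5 times at least once, all but DENND5B, DENND3, DENND4C and RAB11FIP2, and so did 2 of the 12, SYTL4 and MON1A. For these the cause was not tested. All 22 member changes were under 1.5-fold, where the simulated fit recovered fewer than the larger folds.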

Other observations

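RAB27 drives the docking of secretory granules and exosome-bearing compartments, and its effectors include the synaptotagmin-like proteins SYTL1 to SYTL5, UNC13D, EXPH5, MLPH and MYRIP. These 9 measured genes were grouped after their values were seen, and no test was made of the group. Of them 5 were lower and 4 higher in the arrays labelled miR-196b, with a median of -0.07. UNC13D, a priming factor of granule release, read 6.637, 7.029 and 6.954 in control and 6.593, 6.605 and 6.456 in the labelled arrays (change -0.32, limma adjusted p = 0.453). SYTL1 (-0.28, adjusted p = 0.482), SYTL3 (-0.21, 0.419) and SYTL2 (-0.22, 0.520) lay on the same side, and SYTL4 on the other (0.35, 0.484, or a change of 0.19 without control replicate 1). The groups were separated at UNC13D, SYTL1 and SYTL3 on the lower side and at SYTL4 on the higher side, where 7.18% of all named probe sets were separated lower and 10% higher. EXPH5 had 0.17, MYRIP 0.07 and MLPH 0.04, all with overlapping groups. The 9 genes leave out the effectors RPH3A (0.08) and RPH3AL (-0.03), at which control and labelled arrays also overlapped. None of the 9 passed over all genes, and the GTPase itself is not analysed here.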
